A study of Mus musculus with 14 samples.

Results

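The genes described here take fatty acids into heart muscle cells, store them in lipid droplets and oxidise them in mitochondria. The set was chosen by name, as 34 genes of fatty acid uptake, lipid droplet turnover and beta-oxidation among the 54446 genes of the count table. Earlier results of these data were known when it was chosen. All 34 were in the table, and all 34 were among the 17987 genes with enough counts to be tested. RNA was measured in nuclei from hearts of ICR mice, an outbred strain, after enrichment for PCM1, a protein found at cardiomyocyte nuclei. The counts thus describe polyA RNA of nuclear preparations and not of whole cells. These preparations also held unequal amounts of mitochondrially encoded RNA, given below, which is made outside the nucleus. Controls (5 libraries) received no virus. The MEF2A group (4 libraries) received AAV9:cTnT-hMEF2A, an adeno-associated virus that expresses human MEF2A, a muscle transcription factor. The YAP5SA group (3 libraries) received AAV9:cTnT-YAP5SA, which expresses a form of the co-activator YAP that escapes inhibition by the Hippo pathway. The YAP5SA_MEF2A group (2 libraries) received both viruses. In each virus the cardiac troponin T promoter (cTnT) drives expression in cardiomyocytes, pups were injected into the abdominal cavity at postnatal day 7 with 1E11 genome copies of each virus, and hearts were collected at postnatal day 12. Controls were untreated rather than given an empty virus, so the effect of a virus and that of its transgene cannot be told apart. Whether each library came from its own animal is not stated in the labels, and the spread that p-values rest on may therefore be partly technical.

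Long-chain fatty acids enter the cardiomyocyte through transporters, are bound by small carrier proteins, and are activated to acyl-CoA. The carnitine shuttle then carries them across the mitochondrial membranes, a step that malonyl-CoA inhibits. In the matrix, each turn of beta-oxidation runs through an acyl-CoA dehydrogenase, a hydratase, a hydroxyacyl-CoA dehydrogenase and a thiolase, and the electron transfer flavoprotein passes electrons on to ubiquinone. The heart relies on this pathway more and more after birth, and nuclear receptors of the PPAR and estrogen-related receptor families with their PGC-1 co-activators are known to drive its genes.

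The promoters of 3 members are printed to show what the regulatory stretch of such a gene looks like. They were taken from RefSeq on GRCm38.p6 and cover the 250 bases before the gene's start, in the direction of transcription. Capitals mark GGAATG, the motif of the TEAD factors through which YAP acts, in an Acsl1 promoter (chr8:46470787-46471036, plus strand, 138 to 133 bases before the start). In the Acadm promoter (chr3:153944644-153944893, minus strand) they mark TGACCT, which is the nuclear receptor site AGGTCA on the other strand. The Etfa promoter (chr9:55512244-55512493, minus strand) held none of the motifs searched. Another Acsl1 promoter (chr8:46490716-46490965, plus strand) also held none of them and is not printed.
Acsl1: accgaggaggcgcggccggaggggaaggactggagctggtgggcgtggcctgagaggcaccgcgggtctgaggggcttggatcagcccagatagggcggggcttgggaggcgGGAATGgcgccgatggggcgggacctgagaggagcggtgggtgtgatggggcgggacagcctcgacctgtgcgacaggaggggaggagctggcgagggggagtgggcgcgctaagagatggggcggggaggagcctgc
Acadm: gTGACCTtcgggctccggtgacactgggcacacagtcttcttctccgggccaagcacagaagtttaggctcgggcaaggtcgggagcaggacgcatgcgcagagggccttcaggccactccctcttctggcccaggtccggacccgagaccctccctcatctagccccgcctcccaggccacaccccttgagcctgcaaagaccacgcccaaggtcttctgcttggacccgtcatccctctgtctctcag
Etfa: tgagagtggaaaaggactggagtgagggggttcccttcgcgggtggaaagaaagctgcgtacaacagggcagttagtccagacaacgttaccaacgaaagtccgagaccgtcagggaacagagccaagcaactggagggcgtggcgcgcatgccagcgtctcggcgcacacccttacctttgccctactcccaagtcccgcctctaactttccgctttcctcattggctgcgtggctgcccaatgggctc
Motifs were searched on both strands, from 250 bases before to 50 bases after the start, in 33 promoters of the 28 members that the promoter table held. GGAATG was in 15.2% of member promoters and in 14.7% of all 32851 promoters, at Acsl1, Cpt1a, Etfb, Slc25a20 and Slc27a1. AGGTCA was in 27.3% of member promoters and in 16.3% of all promoters, at Acacb, Acadm, Acadvl, Cd36, Cpt1a, Echs1, Plin5 and Ucp3. The MEF2 motif, the estrogen-related receptor motif TCAAGGTCA, which contains AGGTCA, and the DR-1 direct repeat of AGGTCA were in 0 member promoters, and in 1.86%, 0.423% and 0.0396% of all promoters. A match is a description of these letters and not evidence of binding.

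Total counts ran from 16171068 to 24027622 per library. Mitochondrially encoded genes took 60.7% and 67.5% of the counts of Controls 1 and 2 and 32.2% of those of YAP5SA 3, against 3.80% to 23.2% in the other libraries, and results are therefore also given without these libraries. Batch 1 of the labels held libraries 1 and 2 of every group, and batch 2 held Controls 3 to 5, MEF2A 3 and 4 and YAP5SA 3. YAP5SA_MEF2A was thus measured in batch 1 only. Controls 1 and 2 were the only Controls of batch 1, so comparisons with Control within batch 1 rest on these 2 libraries. Without them, Control and YAP5SA_MEF2A share no batch, and without YAP5SA 3 as well, Control and YAP5SA share none. Those comparisons then rest on the batch term, which the groups present in both batches inform. By Xist and Y-linked counts the YAP5SA libraries were all male, both YAP5SA_MEF2A libraries were female, and the Control and MEF2A groups were mixed. Within batch 1, however, the Control and YAP5SA libraries were all male and the MEF2A and YAP5SA_MEF2A libraries all female. Sex and the MEF2A virus therefore cannot be told apart within batch 1. Mouse Yap1 stood at 49.9 to 77.3 CPM (the count scaled to the TMM-adjusted library total) in Control and at 39.3 to 76.3 CPM in YAP5SA, and Mef2a at 509.5 to 607 CPM in Control and 569.8 to 623 CPM in MEF2A. How transgene reads were counted is not given in the sources used here, so these counts do not check the labels. All 9 cardiomyocyte markers were detected in every group, with Myh6, the main ventricular myosin of the adult mouse, at 43.2% of their summed CPM on average.

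Together the 34 genes made up 0.365% to 0.947% of nuclear-encoded counts per library. In Controls their levels, in CPM per kilobase of exon, ran over more than 2 orders of magnitude. Fabp3, the heart-type fatty acid binding protein, was highest at 411 ± 60.5 CPM per kb (SD, n = 5), and its range over Controls lay above that of the next gene. Acadm, the medium-chain acyl-CoA dehydrogenase, followed at 129.5 ± 37.7, Acaa2, a thiolase, at 115 ± 52.8 and Acacb, the acetyl-CoA carboxylase at mitochondria, at 104 ± 41.1 CPM per kb, with overlapping ranges. Among the other neighbours in the order, ranges were apart only between Echs1 (3.83 CPM per kb) and Acot2 (1.77 CPM per kb). Cpt1b, the muscle form of the carnitine shuttle's outer enzyme, stood lowest at 0.773 ± 0.678 CPM per kb. Its value is uncertain, since 2744 of its 3372 exon bases are shared with Gm44502, an annotated readthrough gene on the same strand that held 0 counts in every library, and how reads of shared exons were assigned is not given in the sources used here.

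**Figure D1:**
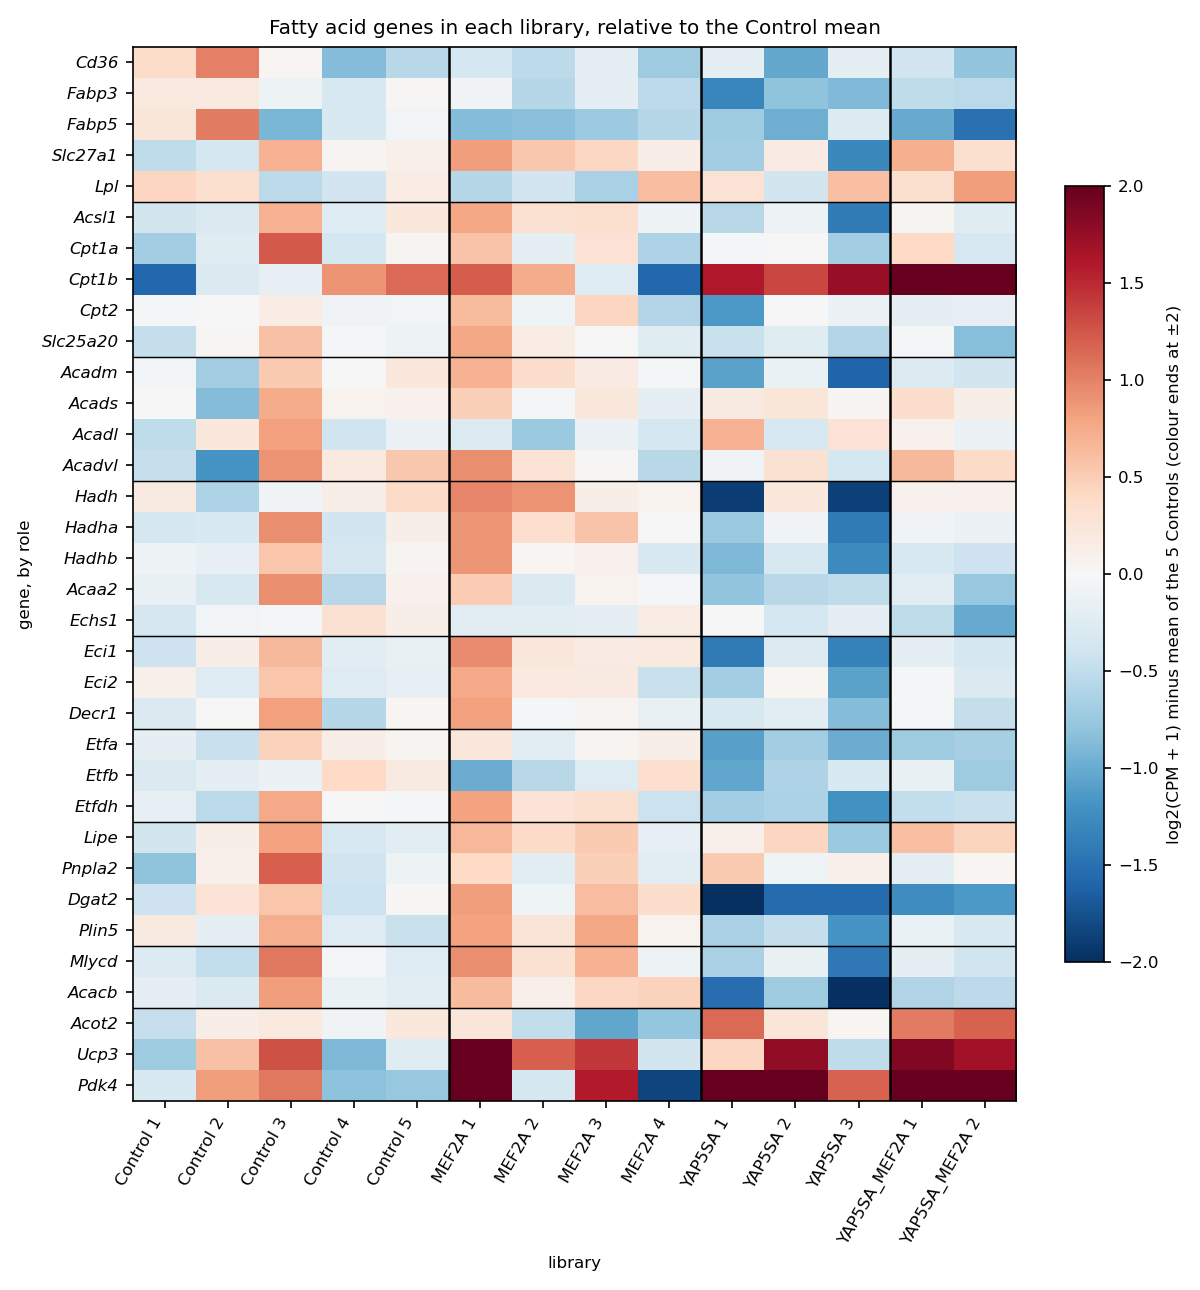
Each row is 1 of the 34 genes, ordered by role, and each column 1 of the 14 libraries. Colour is log2(CPM + 1) minus the mean of the 5 Controls, so that blue is lower and red is higher than Control. Most rows are blue in YAP5SA 1 and YAP5SA 3, Dgat2 is blue in all 3 YAP5SA libraries, and Pdk4 is red in all of them.

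Members tended to be high or low in the same libraries of a group. Control 3 was the highest Control for 25 of 34 members, MEF2A 1 the highest MEF2A library for 27, MEF2A 4 the lowest for 21, YAP5SA 2 the highest YAP5SA library for 22 and YAP5SA 3 the lowest for 19. The summed CPM of the members was 4385, 4341, 7949, 4330 and 5031 in Controls 1 to 5, so Control 3 stood apart from the other Controls. It was 8179, 5625, 6131 and 4975 in MEF2A 1 to 4, 3151, 4424 and 2343 in YAP5SA 1 to 3, and 4954 and 4556 in YAP5SA_MEF2A 1 and 2. The ranges of YAP5SA and MEF2A did not overlap, while that of YAP5SA overlapped Control.

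The first comparison set active YAP against no virus. In YAP5SA against Control, of the 34 members 6 fell and 0 rose (17.6%), against 9.86% of all 17987 genes tested that changed, with 5.69% that rose and 4.17% that fell. The 6 were Dgat2, Fabp3, Etfa, Acacb, Eci1 and Hadhb, which stand at different steps of the pathway: storage, binding, electron transfer, malonyl-CoA synthesis, double-bond shifting and thiolysis. The median log2 fold change of the members was -0.59, with 26 of 34 below 0, beside a median of 0.06 over all genes. The CPM of 7 members was lower in every YAP5SA library than in every Control, and that of 2 members, Cpt1b and Pdk4, was higher, where 5.13% and 8.51% of all genes were so. Without Controls 1 and 2, 14 members fell (41.2%, beside 11.5% of all genes), namely the 6 and Slc27a1, Acsl1, Acadm, Acadvl, Hadh, Hadha, Eci2 and Etfdh. Without Controls 1 and 2 and YAP5SA 3, 0 members were called, with 0.428% of all genes called and a median of -0.97. Control then stood only in batch 2 and YAP5SA only in batch 1. They were joined through MEF2A, the only group left in both batches. Within batch 1 the count was 4 (9.33% of all genes) with a median of -0.21, and within batch 2, where the lone YAP5SA library is assumed to vary like the other groups, it was 10 (12.4%) with a median of -0.94. Leaving out YAP5SA 1 or YAP5SA 3 left 2 members called each time, with 3.9% and 3.08% of all genes called, and leaving out YAP5SA 2 gave 11, with 16.7%. A term for sex gave 4 lower and 1 higher (Cpt1b; 11.8%), and no filter on low counts gave 13 lower and 2 higher (Cpt1b and Pdk4; 8.59%). With library totals and no scaling factors 0 were called and the median turned to 0.051, on a scale on which the median of all genes moved to 0.69.

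**Figure D2:**
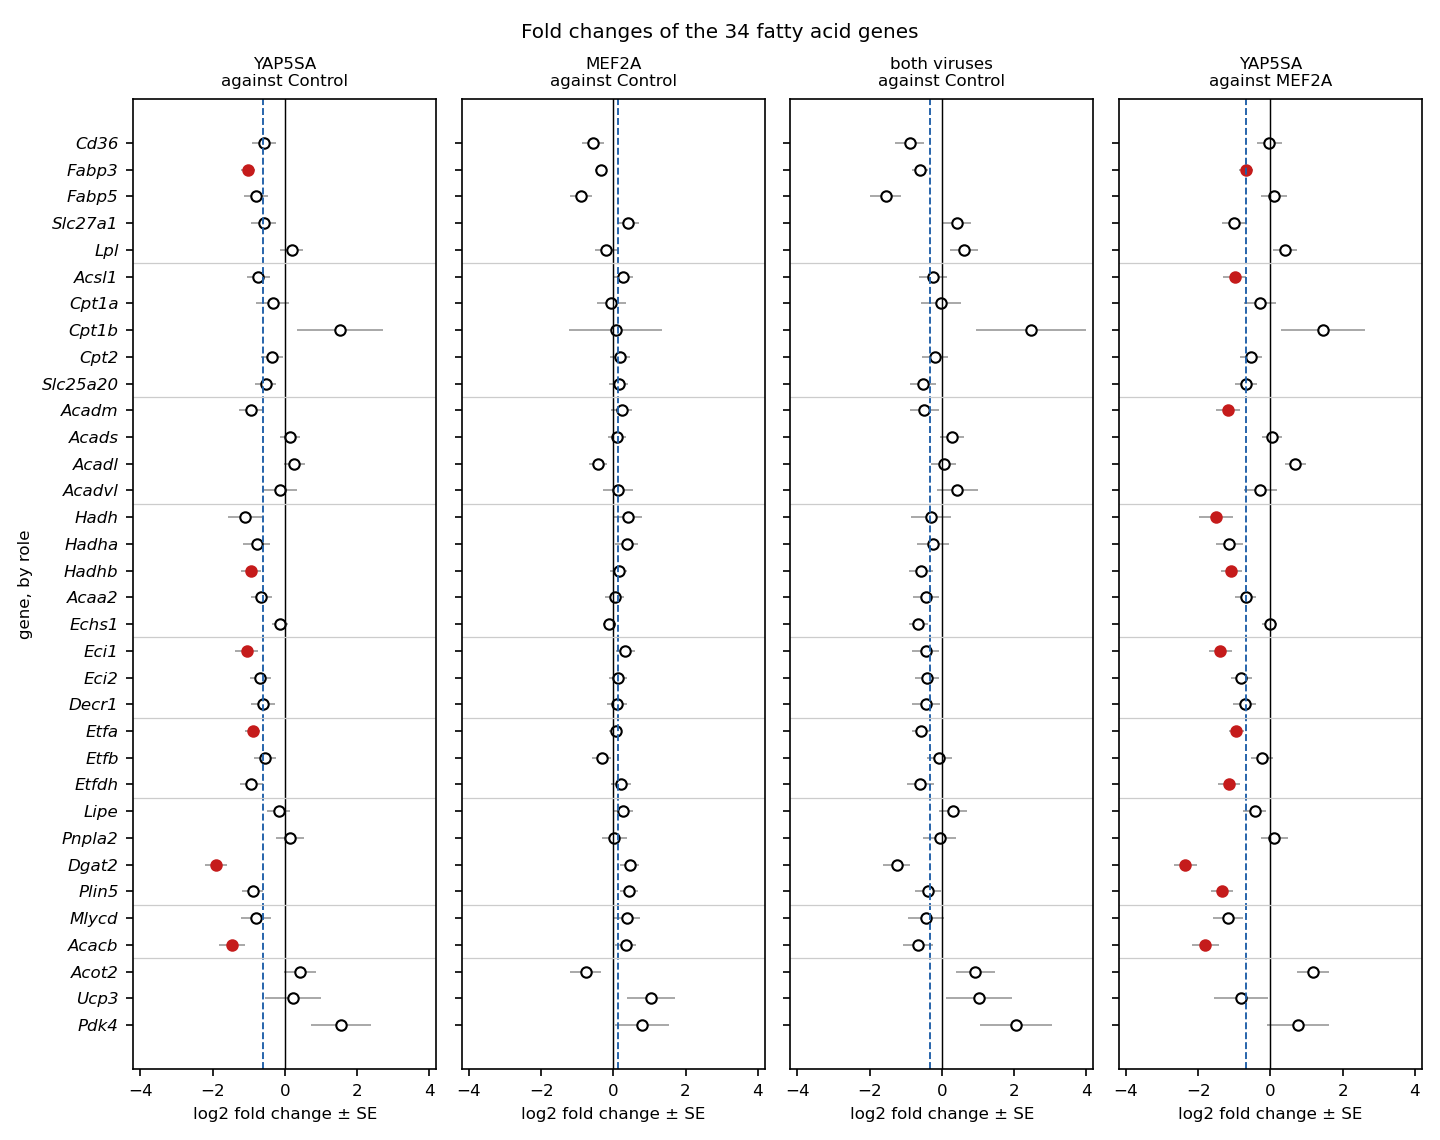
Points are log2 fold changes of the 34 genes by role in 4 comparisons, and bars are 1 standard error on each side. Filled red points passed the test at an adjusted p under 0.05, and the dashed line is the median of the members. Red points are seen in YAP5SA against Control (6) and YAP5SA against MEF2A (11), all left of 0.

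The summed CPM of the cardiomyocyte markers was 29300 to 43310 in YAP5SA and 52440 to 93170 in Control, and 3 of 9 fell (Ttn, Tnni3 and Myh6). The ranges of Tnnt2, Mybpc3, Actc1, Ryr2, Pln and Pcm1 overlapped between these groups. On average Myh6, Tnnt2, Mybpc3 and Ttn gave 43.2%, 20.6%, 15.3% and 12.6% of the marker sum, so the sum mainly follows these genes. As a share of the summed cardiomyocyte marker CPM, the members stood at 7.90% ± 0.90 in Control (SD, n = 5; 6.36% to 8.53%), 6.97% ± 1.53 in MEF2A (n = 4), 8.90% ± 1.16 in YAP5SA (n = 3; 8.0% to 10.2%) and 10.8% ± 1.44 in YAP5SA_MEF2A (n = 2). On that scale the mean of YAP5SA was thus not below that of Control, and the ranges overlapped. In bulk nuclei, fewer nuclei of a type and less RNA in each cannot be told apart. Fibroblast markers summed to 1989 to 3432 CPM in YAP5SA and 1405 to 2363 in Control, with 2 of 12 higher by test, and endothelial markers to 317.6 to 478.7 against 416.8 to 1013, with 4 of 12 lower. Macrophage markers reached 1094 CPM in YAP5SA 3 and stayed at or under 227 CPM in every other library. Mural cell markers summed to 660.1 to 1403 CPM in YAP5SA and 481.6 to 691 in Control, with 1 of 8 higher by test. That marker was Acta2 (150.6 to 865 against 46.9 to 97.9 CPM), and the other 7 summed to 466.4 to 538 CPM in YAP5SA and 424 to 593 in Control. Erythroid markers summed to 51.6 to 326 and 154.8 to 453 CPM. Adipocyte markers, which matter for droplet genes, summed to at most 38.7 CPM in any library, with Plin1 and Cfd at 0 in every YAP5SA library. The part of these marker changes in the results below was not tested.

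**Figure D3:**
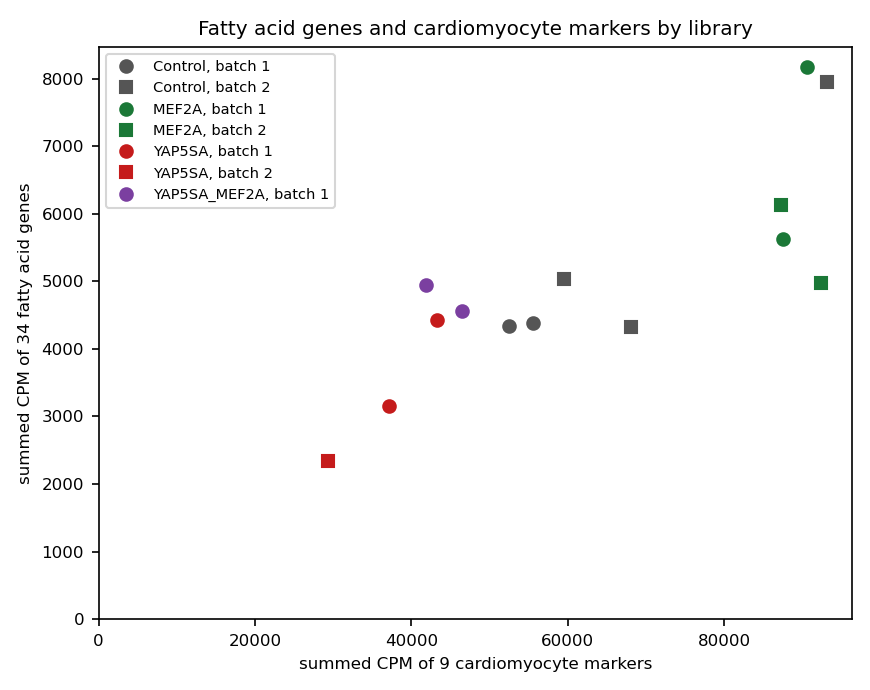
Each point is 1 library, with the summed CPM of 9 cardiomyocyte markers on the x axis and the summed CPM of the 34 fatty acid genes on the y axis. Colour is the group and the shape is the batch. YAP5SA libraries lie at the lower left, at 2343 to 4424 CPM of members, and MEF2A libraries at the right, at 4975 to 8179.

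Among the uptake genes, Fabp3, which carries fatty acids in the cytosol (ENSMUSG00000028773, chr4:130308595-130315463 of GRCm38, plus strand), was the called member. Fabp3 stood at 386, 385, 312, 269 and 340.3 CPM in Controls 1 to 5 and at 319, 226, 292 and 234 CPM in MEF2A 1 to 4. It stood at 136, 192 and 182 CPM in YAP5SA 1 to 3 and at 235 and 231 CPM in YAP5SA_MEF2A 1 and 2. All 3 YAP5SA libraries were below all 9 Control and MEF2A libraries, and both YAP5SA_MEF2A libraries were below all Controls and above all YAP5SA libraries. Fabp3 fell by 1.02 ± 0.19 (SE) on the log2 scale in YAP5SA against Control (adjusted p = 0.00297). Fabp3 fell by 0.67 ± 0.20 (SE) on the log2 scale in YAP5SA against MEF2A (adjusted p = 0.0276). The first of these calls was kept when any 1 library was left out, but was lost within batch 2 alone (adjusted p = 0.0855). The second was lost without MEF2A 1, MEF2A 3 or YAP5SA 1 (adjusted p = 0.0674 to 0.136). The exons of Fabp3 overlap those of Zcchc17 and Gm10570 on the other strand by 81 and 80 bases, and the libraries were not directional. The other uptake genes were not called by edgeR with all libraries in any comparison. Slc27a1 was lower in YAP5SA against Control without Controls 1 and 2, and Cd36 and Fabp5 were lower in that comparison within batch 1. Within batch 1 it rests on Controls 1 and 2. These held more Cd36 (109 and 171 CPM) and Fabp5 (31.1 and 54.6 CPM) than any other library. Endothelial markers were also highest there, at 722.7 and 1013 CPM, against at most 622 CPM elsewhere. Whether the calls of Cd36 and Fabp5 follow the endothelial content of these libraries was not tested. Cd36, the fatty acid translocase, was at -0.58 ± 0.33 in YAP5SA against Control, Fabp5, the epidermal-type binding protein, at -0.79 ± 0.34, Slc27a1, a transport protein with acyl-CoA synthetase activity, at -0.58 ± 0.35, and Lpl, the lipase that frees fatty acids from lipoproteins, at 0.19 ± 0.32 on the log2 scale. Cd36 ranged over 46.0 to 171 CPM in Control, 51.4 to 73.7 in MEF2A, 41.3 to 74.4 in YAP5SA and 48.8 to 65.0 in YAP5SA_MEF2A. Slc27a1 ranged over 199.6 to 459.7 CPM in Control, 312 to 504 in MEF2A, 116 to 318 in YAP5SA and 356 to 462 in YAP5SA_MEF2A. Lpl ranged over 66.3 to 128 CPM in Control, 60.5 to 146 in MEF2A, 73.7 to 146 in YAP5SA and 119 to 170.0 in YAP5SA_MEF2A. All 3 had YAP5SA ranges that overlapped Control. Fabp5 had its lowest levels in YAP5SA_MEF2A (12.5 and 8.72 CPM, against 13.5 to 54.6 CPM in Control), at -1.56 ± 0.43 with an adjusted p of 0.0849.

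The 5 activation and carnitine shuttle genes held 0 calls against Control (edgeR), with 1 lower at an unadjusted p under 0.05. Acsl1 stood at 259, 272, 539.7, 278 and 384 CPM in Controls 1 to 5 and at 569, 412, 414 and 309 CPM in MEF2A 1 to 4. It stood at 226, 310.1 and 125 CPM in YAP5SA 1 to 3 and at 346 and 282 CPM in YAP5SA_MEF2A 1 and 2. Acsl1, the main long-chain acyl-CoA synthetase of heart, was lowest in YAP5SA 3, while YAP5SA 2 lay among the Controls. Acsl1 was at -0.73 ± 0.33 (SE) on the log2 scale in YAP5SA against Control, which did not pass the test (adjusted p = 0.174). Acsl1 fell by 0.99 ± 0.32 (SE) on the log2 scale in YAP5SA against MEF2A (adjusted p = 0.0485). The latter call was kept only without Control 1, 2 or 3, MEF2A 4 or YAP5SA 2, and was lost without any of the other 9 libraries (adjusted p = 0.0578 to 0.296). Its exons overlap those of Gm45244 on the other strand by 1039 bases, at 0 CPM. Cpt1a, the form of the outer carnitine palmitoyltransferase found in liver and young heart, was at -0.33 ± 0.46, Cpt2, the inner enzyme, at -0.36 ± 0.30, and Slc25a20, the carnitine-acylcarnitine carrier between them, at -0.53 ± 0.30. Cpt1a ranged over 68.2 to 262 CPM in Control, 72.2 to 166 in MEF2A, 68.3 to 111 in YAP5SA and 88.2 to 146 in YAP5SA_MEF2A. Cpt2 ranged over 20.9 to 24.4 CPM in Control, 14.3 to 34.7 in MEF2A, 9.39 to 21.8 in YAP5SA and 19.2 to 19.6 in YAP5SA_MEF2A. Slc25a20 ranged over 20.9 to 44.3 CPM in Control, 24.7 to 50.9 in MEF2A, 19.1 to 24.6 in YAP5SA and 15.7 to 28.8 in YAP5SA_MEF2A. Control 3 was far above the other Controls for Cpt1a. Cpt1b went the other way by value, and is given in full after its values were seen. Cpt1b stood at 0, 1.43, 1.63, 4.5 and 5.47 CPM in Controls 1 to 5 and at 5.83, 3.93, 1.49 and 0 CPM in MEF2A 1 to 4. It stood at 8.02, 6.52 and 8.87 CPM in YAP5SA 1 to 3 and at 19.0 and 10.8 CPM in YAP5SA_MEF2A 1 and 2. Every YAP5SA and YAP5SA_MEF2A library was above every Control and MEF2A library. Its estimates were wide, at 1.53 ± 1.18 in YAP5SA against Control (adjusted p = 0.468) and 2.47 ± 1.53 for both viruses (adjusted p = 0.543), and the shared exons above leave the source of the reads uncertain.

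Of the 4 acyl-CoA dehydrogenases, which begin each turn of beta-oxidation on chains of different length, 0 were called against Control (edgeR) and 1 was lower at an unadjusted p under 0.05. Acadm stood at 472, 300.2, 705, 489.6 and 567 CPM in Controls 1 to 5 and at 791, 624, 549.7 and 479.9 CPM in MEF2A 1 to 4. It stood at 232, 444 and 159.5 CPM in YAP5SA 1 to 3 and at 405 and 377 CPM in YAP5SA_MEF2A 1 and 2. Acadm (ENSMUSG00000062908, chr3:153922357-153944632 of GRCm38, minus strand), for medium chains, was below all Controls in YAP5SA 1 and YAP5SA 3 and among them in YAP5SA 2. Acadm was at -0.94 ± 0.34 (SE) on the log2 scale in YAP5SA against Control, which did not pass the test (adjusted p = 0.0864). Acadm fell by 1.17 ± 0.33 (SE) on the log2 scale in YAP5SA against MEF2A (adjusted p = 0.0258). That call was lost without MEF2A 1, MEF2A 2, YAP5SA 1 or YAP5SA 3 (adjusted p = 0.0508 to 0.181). Acads, for short chains, was at 0.15 ± 0.28 in YAP5SA against Control, Acadl, for long chains, at 0.27 ± 0.28, and Acadvl, for very long chains, at -0.14 ± 0.47, with adjusted p of 0.797, 0.613 and 0.896. Acads ranged over 15.8 to 50.1 CPM in Control, 26.2 to 41.9 in MEF2A, 31.0 to 35.4 in YAP5SA and 32.4 to 38.1 in YAP5SA_MEF2A. Acadl ranged over 73.5 to 186 CPM in Control, 62.5 to 97.2 in MEF2A, 84.3 to 171 in YAP5SA and 96.8 to 112 in YAP5SA_MEF2A. Acadvl ranged over 33.0 to 142 CPM in Control, 51.4 to 144 in MEF2A, 59.2 to 93.6 in YAP5SA and 99.1 to 119 in YAP5SA_MEF2A. The YAP5SA and Control ranges of these 3 overlapped. Acadvl shares 1151 exon bases with Dvl2 on the other strand.

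The enzymes of the later steps were all below 0 in YAP5SA against Control, from -0.13 for Echs1, the short-chain hydratase, to -1.11 for Hadh, and 1 of 5 passed the test. Hadhb stood at 143, 136, 226, 121 and 159.5 CPM in Controls 1 to 5 and at 284, 159, 164 and 124 CPM in MEF2A 1 to 4. It stood at 81.6, 123 and 63.0 CPM in YAP5SA 1 to 3 and at 125 and 115 CPM in YAP5SA_MEF2A 1 and 2. Hadhb (ENSMUSG00000059447, chr5:30155248-30184593 of GRCm38, plus strand), the thiolase subunit of the trifunctional protein, was lowest in YAP5SA 3, and YAP5SA 2 overlapped the Controls. Hadhb fell by 0.93 ± 0.28 (SE) on the log2 scale in YAP5SA against Control (adjusted p = 0.045). Hadhb fell by 1.08 ± 0.28 (SE) on the log2 scale in YAP5SA against MEF2A (adjusted p = 0.0166). The call against Control was kept only without Control 2, Control 4, MEF2A 1 or YAP5SA 2, and was lost without any other single library (adjusted p = 0.051 to 0.289), within batch 1 (0.283), without the batch term (0.063) and with a term for sex (0.0666). The call against MEF2A was lost without MEF2A 1, YAP5SA 1 or YAP5SA 3 (adjusted p = 0.0776 to 0.134). Hadh stood at 258, 149, 218, 248 and 299 CPM in Controls 1 to 5 and at 449, 428, 248 and 239 CPM in MEF2A 1 to 4. It stood at 60.9, 264 and 61.6 CPM in YAP5SA 1 to 3 and at 242 and 242 CPM in YAP5SA_MEF2A 1 and 2. Hadh, the hydroxyacyl-CoA dehydrogenase for shorter chains, split the YAP5SA group, with YAP5SA 1 and 3 below every other library and YAP5SA 2 at the level of Controls. Hadh was at -1.11 ± 0.48 (SE) on the log2 scale in YAP5SA against Control, which did not pass the test (adjusted p = 0.169). Hadh fell by 1.51 ± 0.47 (SE) on the log2 scale in YAP5SA against MEF2A (adjusted p = 0.0487). The latter call was kept only without Control 2, Control 5 or YAP5SA 2, and the adjusted p was 0.0515 to 0.257 without any other library. Hadha, the other subunit of the trifunctional protein, was at -0.77 ± 0.38 against Control and -1.14 ± 0.37 against MEF2A (adjusted p = 0.0515), and Acaa2 at -0.65 ± 0.30 against Control. Hadha ranged over 393 to 979 CPM in Control, 514 to 948 in MEF2A, 193 to 490.2 in YAP5SA and 472 to 492 in YAP5SA_MEF2A. Acaa2 ranged over 109.8 to 311 CPM in Control, 132 to 230.4 in MEF2A, 93.6 to 114 in YAP5SA and 96.0 to 138 in YAP5SA_MEF2A. Echs1 ranged over 24.7 to 38.8 CPM in Control, 26.6 to 34.7 in MEF2A, 24.4 to 31.2 in YAP5SA and 15.1 to 21.8 in YAP5SA_MEF2A. Of these, Hadha and Echs1 share 75 and 142 exon bases with Garem2 and Paox on the other strand.

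Of the enzymes that handle double bonds of unsaturated fatty acids, Eci1 (ENSMUSG00000024132, chr17:24426641-24439348 of GRCm38, plus strand), an enoyl-CoA isomerase, was called. Eci1 stood at 72.2, 106, 151, 82.6 and 86.9 CPM in Controls 1 to 5 and at 187, 113, 108 and 111 CPM in MEF2A 1 to 4. It stood at 35.4, 79.2 and 37.2 CPM in YAP5SA 1 to 3 and at 85.0 and 75.5 CPM in YAP5SA_MEF2A 1 and 2. YAP5SA 1 and 3 were below every other library, and YAP5SA 2 was within the range of Controls. Eci1 fell by 1.06 ± 0.31 (SE) on the log2 scale in YAP5SA against Control (adjusted p = 0.0432). Eci1 fell by 1.39 ± 0.32 (SE) on the log2 scale in YAP5SA against MEF2A (adjusted p = 0.00842). The call against Control was kept only without Control 1, Control 3 or YAP5SA 2, was lost without any other single library (adjusted p = 0.0506 to 0.271), and ended within batch 1 (0.273) and with a term for sex (0.052). The call against MEF2A was lost without YAP5SA 3 (adjusted p = 0.082). Eci2, a second isomerase, was at -0.68 ± 0.29 and Decr1, the dienoyl-CoA reductase, at -0.60 ± 0.32 in YAP5SA against Control, with adjusted p of 0.145 and 0.255. Eci2 ranged over 81.8 to 145 CPM in Control, 71.8 to 167 in MEF2A, 46.3 to 100.5 in YAP5SA and 79.7 to 95.8 in YAP5SA_MEF2A. Decr1 ranged over 37.2 to 99.5 CPM in Control, 50.1 to 99.6 in MEF2A, 30.3 to 48.3 in YAP5SA and 40.0 to 54.6 in YAP5SA_MEF2A. Eci2 shares 189 exon bases with Gm16984 on the other strand.

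All 3 genes of electron transfer to ubiquinone had non-overlapping ranges in YAP5SA and Control. Etfa stood at 64.6, 54.4, 103, 81.1 and 76.8 CPM in Controls 1 to 5 and at 87.0, 64.3, 77.3 and 80.3 CPM in MEF2A 1 to 4. It stood at 34.4, 45.3 and 36.9 CPM in YAP5SA 1 to 3 and at 44.8 and 46.5 CPM in YAP5SA_MEF2A 1 and 2. Etfa (ENSMUSG00000032314, chr9:55454508-55512243 of GRCm38, minus strand), the alpha subunit of the electron transfer flavoprotein, was lower in all 5 libraries that received the YAP5SA virus than in all 9 others. Etfa fell by 0.89 ± 0.20 (SE) on the log2 scale in YAP5SA against Control (adjusted p = 0.011). Etfa fell by 0.95 ± 0.21 (SE) on the log2 scale in YAP5SA against MEF2A (adjusted p = 0.00554). The call against Control was lost without YAP5SA 1 (adjusted p = 0.0551) or YAP5SA 3 (0.118) and within batch 1 (0.116), and that against MEF2A was lost without YAP5SA 3 (0.0573). Etfdh stood at 133, 102, 253, 148 and 146 CPM in Controls 1 to 5 and at 262, 180.2, 186 and 110.2 CPM in MEF2A 1 to 4. It stood at 93.4, 96.2 and 63.9 CPM in YAP5SA 1 to 3 and at 106 and 110.1 CPM in YAP5SA_MEF2A 1 and 2. Etfdh, the dehydrogenase that hands the electrons to ubiquinone, was below all Controls and all MEF2A libraries in each YAP5SA library. Etfdh was at -0.93 ± 0.31 (SE) on the log2 scale in YAP5SA against Control, which did not pass the test (adjusted p = 0.0691). Etfdh fell by 1.14 ± 0.31 (SE) on the log2 scale in YAP5SA against MEF2A (adjusted p = 0.0204). The latter call was lost without MEF2A 1, YAP5SA 1 or YAP5SA 3 (adjusted p = 0.0636 to 0.156), and Etfdh shares 278 exon bases with 4930579G24Rik on the other strand. Etfb, the beta subunit, stood at 5.55 to 9.88 CPM in YAP5SA and 9.97 to 16.6 CPM in Control, at -0.55 ± 0.30 with an adjusted p of 0.266. Its exons share 617 bases with Gm45233 on the same strand, which held 0 counts.

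Dgat2 (ENSMUSG00000030747, chr7:99153658-99182719 of GRCm38, minus strand), which adds the last acyl chain in triglyceride synthesis, had the lowest fold change of all members against Control. Dgat2 stood at 15.5, 25.8, 31.5, 15.3 and 21.3 CPM in Controls 1 to 5 and at 38.5, 19.9, 32.7 and 27.2 CPM in MEF2A 1 to 4. It stood at 3.99, 6.56 and 6.57 CPM in YAP5SA 1 to 3 and at 8.38 and 9.0 CPM in YAP5SA_MEF2A 1 and 2. The 5 libraries with the YAP5SA virus were all below the 9 without it, and YAP5SA was below YAP5SA_MEF2A. Dgat2 fell by 1.91 ± 0.32 (SE) on the log2 scale in YAP5SA against Control (adjusted p = 0.00118). This is a 3.75-fold lower level. Dgat2 fell by 2.36 ± 0.33 (SE) on the log2 scale in YAP5SA against MEF2A (adjusted p = 0.00021). Dgat2 fell by 1.7 ± 0.38 (SE) on the log2 scale in both viruses against MEF2A (adjusted p = 0.0249). The first call was kept without any 1 library and ended with library totals (adjusted p = 0.0735) and without Controls 1 and 2 and YAP5SA 3 (0.126). The second was kept under every alternative tried. The third was lost without MEF2A 1 (0.0945), YAP5SA_MEF2A 1 (0.305) or YAP5SA_MEF2A 2 (0.238), with library totals (0.264) and within batch 1 (0.0719). Plin5 stood at 34.8, 26.6, 51.3, 25.6 and 22.4 CPM in Controls 1 to 5 and at 54.7, 36.9, 53.2 and 32.1 CPM in MEF2A 1 to 4. It stood at 19.2, 21.7 and 13.0 CPM in YAP5SA 1 to 3 and at 27.8 and 24.7 CPM in YAP5SA_MEF2A 1 and 2. Plin5, the droplet coat protein of oxidative tissues that tethers droplets to mitochondria, was lower in all YAP5SA libraries than in all Control and MEF2A libraries. Plin5 was at -0.89 ± 0.30 (SE) on the log2 scale in YAP5SA against Control, which did not pass the test (adjusted p = 0.0654). Plin5 fell by 1.33 ± 0.30 (SE) on the log2 scale in YAP5SA against MEF2A (adjusted p = 0.00748). The latter call was lost without YAP5SA 3 (adjusted p = 0.0753). The lipases were not called: Pnpla2, which releases the first fatty acid from stored triglyceride, was at 0.14 ± 0.38 and Lipe, the hormone-sensitive lipase, at -0.17 ± 0.32 in YAP5SA against Control. Pnpla2 ranged over 47.5 to 193 CPM in Control, 71.6 to 117 in MEF2A, 78.6 to 121 in YAP5SA and 73.3 to 85.4 in YAP5SA_MEF2A. Lipe ranged over 35.5 to 81.1 CPM in Control, 41.1 to 73.6 in MEF2A, 27.1 to 62.5 in YAP5SA and 62.8 to 70.1 in YAP5SA_MEF2A. Lipe shares 918 exon bases with 4732471J01Rik on the other strand.

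Acacb (ENSMUSG00000042010, chr5:114146535-114250761 of GRCm38, plus strand) makes the malonyl-CoA that holds back the carnitine shuttle, and Mlycd degrades it. Acacb stood at 836, 783, 1708, 868 and 816 CPM in Controls 1 to 5 and at 1478, 1022, 1274 and 1315 CPM in MEF2A 1 to 4. It stood at 332, 583 and 190.1 CPM in YAP5SA 1 to 3 and at 629 and 662 CPM in YAP5SA_MEF2A 1 and 2. All YAP5SA libraries were below all Controls and all MEF2A libraries, and Control 3 stood far above the other Controls. Acacb fell by 1.46 ± 0.36 (SE) on the log2 scale in YAP5SA against Control (adjusted p = 0.0186). Acacb fell by 1.8 ± 0.36 (SE) on the log2 scale in YAP5SA against MEF2A (adjusted p = 0.00447). The call against Control was lost without YAP5SA 1 (adjusted p = 0.0874) or YAP5SA 3 (0.131) and within batch 1 (0.0808). The call against MEF2A was kept without any 1 library and ended only with library totals (0.132) among the alternatives tried. Mlycd was at -0.79 ± 0.42 against Control and -1.18 ± 0.41 against MEF2A, with adjusted p of 0.266 and 0.0732. Mlycd ranged over 60.9 to 179.9 CPM in Control, 80.6 to 165 in MEF2A, 31.3 to 77.8 in YAP5SA and 65.3 to 75.5 in YAP5SA_MEF2A. The gene that makes malonyl-CoA and the gene that removes it were thus both lower by value in YAP5SA, and of these Acacb passed the test.

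**Figure D4:**
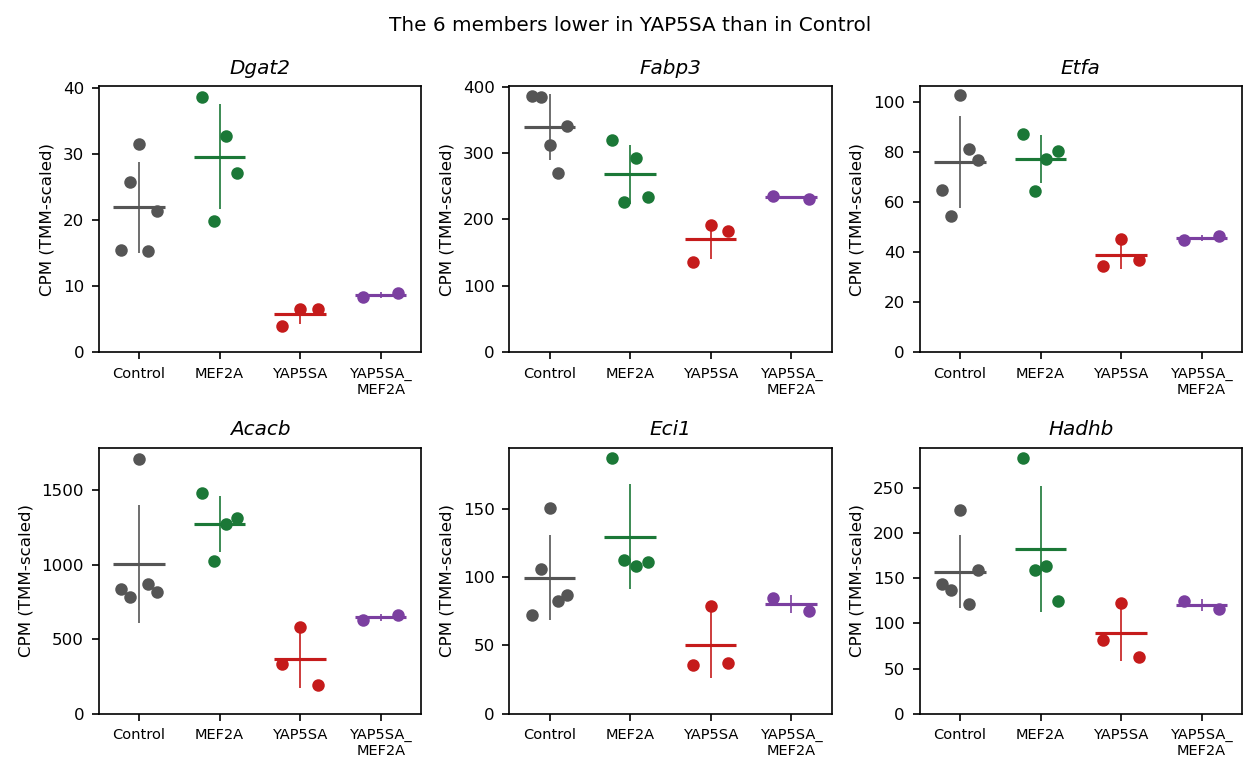
CPM of the 6 members lower in YAP5SA than in Control, in each library, with bars at the group mean and lines of 1 SD on each side. YAP5SA points lie below all Controls for Dgat2, Fabp3, Etfa and Acacb, and overlap them for Eci1 and Hadhb.

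The 3 thioesterase, uncoupling and fuel switch genes were above 0 by value in YAP5SA against Control and with both viruses against Control. In YAP5SA against Control 0 of them were called by edgeR or reached an unadjusted p under 0.05. Ucp3 stood at 50.7, 126, 204, 44.4 and 70.4 CPM in Controls 1 to 5 and at 486, 192, 226 and 64.7 CPM in MEF2A 1 to 4. It stood at 112, 288 and 58.4 CPM in YAP5SA 1 to 3 and at 305 and 272 CPM in YAP5SA_MEF2A 1 and 2. Ucp3, the muscle uncoupling protein, spread widely within every group but YAP5SA_MEF2A, and reached its highest value in MEF2A 1. Ucp3 was at 0.23 ± 0.77 (SE) on the log2 scale in YAP5SA against Control, which did not pass the test (adjusted p = 0.898). Ucp3 was at 1.04 ± 0.67 (SE) on the log2 scale in MEF2A against Control, which did not pass the test (adjusted p = 0.777). Pdk4, the kinase that shuts pyruvate dehydrogenase and thereby turns the cell from glucose to fatty acids, is given in full after its values were seen. Pdk4 stood at 28.1, 63.4, 74.1, 19.5 and 20.4 CPM in Controls 1 to 5 and at 165, 27.3, 107 and 9.12 CPM in MEF2A 1 to 4. It stood at 204, 143 and 80.8 CPM in YAP5SA 1 to 3 and at 213 and 229.7 CPM in YAP5SA_MEF2A 1 and 2. Every library with the YAP5SA virus was above every Control, and MEF2A libraries spread from below to above the Controls. Pdk4 was at 1.56 ± 0.84 (SE) on the log2 scale in YAP5SA against Control, which did not pass the test (adjusted p = 0.291). Pdk4 was at 2.05 ± 1.0 (SE) on the log2 scale in both viruses against Control, which did not pass the test (adjusted p = 0.425). The standard errors were large beside these changes. Acot2 ranged over 2.49 to 4.58 CPM in Control, 1.34 to 4.68 in MEF2A, 3.96 to 9.5 in YAP5SA and 8.92 to 9.89 in YAP5SA_MEF2A. Acot2, a mitochondrial acyl-CoA thioesterase, was at 0.42 ± 0.45 in YAP5SA against Control and at 0.93 ± 0.54 with both viruses (adjusted p = 0.494).

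With the MEF2A virus alone, 0 members were called against Control (edgeR), against 0.0167% of all genes called, which is 3 genes. At an unadjusted p under 0.05, 1 member was lower, and no share of all genes was taken at that threshold. The median log2 fold change was 0.14, with 25 of 34 members above 0. It turned to -0.21 without Controls 1 and 2, to -0.17 without these and YAP5SA 3, to -0.03 without MEF2A 1 and to -0.02 with nuclear-encoded totals, and was 0.38 without Control 3. The group estimates ran from -0.89 for Fabp5 to 1.04 for Ucp3. Controls 1 and 2 are the only Controls of batch 1. Both were male and MEF2A 1 and 2 were female, so sex and virus cannot be told apart there. Within batch 1 the median was 0.60 and 2 members were called (Acadvl higher and Fabp5 lower; 2.96% of all genes), and within batch 2 it was -0.13 with 0 called (0.113%). Fabp5 was higher in Controls 1 and 2 (31.1 and 54.6 CPM) than in any other library. With DESeq2 and with limma-voom 0 members were called, and without a filter on low counts 2 were higher (Ucp3 and Pdk4), with 1.21% of all genes called. The CPM ranges of 0 members lay wholly above or below Control, where 1.88% and 0.945% of all genes did.

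YAP5SA against MEF2A compared the viruses directly, with both groups injected. Of the members 11 fell and 0 rose (32.4%), against 14.9% of all genes called, 7.77% higher and 7.12% lower, and the median was -0.68. The 6 members lower against Control were among the 11, and Plin5, Etfdh, Acadm, Acsl1 and Hadh were added. The ranges of 14 members lay wholly below those of MEF2A and that of 1, Cpt1b, wholly above, where 13.7% and 15.9% of all genes did. Both comparisons use the same YAP5SA libraries. Leaving out MEF2A 1 or YAP5SA 1 left 5 members called (10.2% and 6.84% of all genes), and leaving out YAP5SA 3 left 3 (4.76%). Leaving out both Controls 1 and 2 and YAP5SA 3 left 5 (4.89%), a term for sex gave 5 lower and 1 higher (Cpt1b; 13.4%), and library totals left 1 (Dgat2 lower; 8.92%). Nuclear-encoded totals gave 8 lower and 2 higher (Acadl and Acot2; 18.4%), and no filter gave 18 lower and 3 higher (Cpt1b, Acadl and Pdk4; 11.5%). Cardiomyocyte markers summed to 87270 to 92380 CPM in MEF2A, and 7 of 9 were lower in YAP5SA than in MEF2A. Of 12 markers each, 5 of macrophages and 5 of fibroblasts were higher and 3 of endothelial cells were lower, and 1 of 8 mural cell markers was higher. Their part in this result was not tested. The medians within batch 1 and batch 2 were -0.79 and -0.74, with 4 members called within batch 1 (4.1% of all genes). In batch 1 the YAP5SA libraries were male and the MEF2A libraries female, so sex and virus cannot be told apart there.

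With both viruses, 0 members were called against Control (edgeR), against 1.36% of all genes called, 1.16% higher and 0.195% lower. At an unadjusted p under 0.05, 6 members were lower, and no share of all genes was taken at that threshold. The median was -0.33, with 24 of 34 below 0. It was -0.77 without Controls 1 and 2, -0.51 and -0.50 without Control 1 or 2 alone, -0.22 without Control 3, -0.19 without YAP5SA_MEF2A 2, and turned to 0.44 with library totals, where the median of all genes was 0.84. Without Controls 1 and 2 the compared groups shared no batch, so that value rests on the batch term. The ranges of 4 members lay wholly above Control and those of 7 wholly below, beside 14.9% and 8.43% of all genes. The lowest estimates were those of Fabp5 (-1.56 ± 0.43) and Dgat2 (-1.25 ± 0.37, adjusted p = 0.111). Within batch 1 all 4 groups have 2 libraries, and the Controls are Controls 1 and 2, which had high mitochondrial counts. These Controls were male and both YAP5SA_MEF2A libraries female, so sex and virus cannot be told apart within batch 1. There the median was -0.07 and 4 members were called (8.58% of all genes). Cpt1b and Acadvl were higher and Cd36 and Fabp5 lower. Levels of Cd36 and Fabp5 in Controls 1 and 2 were above those of every other library. DESeq2 called 2 and voom 0. Against YAP5SA alone 0 members were called, as were 0% of all genes, and 1 member was higher at an unadjusted p under 0.05. DESeq2 and voom called 0. The median was 0.41 and 29 of 34 were above 0, with 10 members' ranges wholly above YAP5SA (11.2% of all genes) and 2 wholly below (8.79%). All YAP5SA libraries were male and both YAP5SA_MEF2A libraries female, so sex and the added virus cannot be told apart between these groups. With a term for sex, which the mixed groups inform, the median was 0.30. Against MEF2A alone 1 member fell, Dgat2 (2.94%, beside 2.32% of all genes, 1.61% higher and 0.706% lower). The ranges of 3 members lay wholly above MEF2A and those of 11 wholly below, beside 22.8% and 18.3% of all genes. The mean CPM of the 2 libraries with both viruses lay between the means of the single viruses for 21 of 34 members, and for 24 within batch 1. The interaction, the change from adding MEF2A to YAP5SA minus the change from MEF2A alone, was called for 0 members and 0% of all genes, with 1 member higher at an unadjusted p under 0.05, a median of 0.20 and 27 members above 0. That median turned to -0.40 within batch 1, the only batch with all 4 groups, where it rests on Controls 1 and 2. It turned to -0.08 without Control 3 and was 0.15 with a term for sex. The comparisons of each virus with Control share the Control libraries, and the group with both viruses rests on 2 libraries.

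Other genes of the pathway were read from lists chosen by function, and genes beyond the 2 called ones with the smallest p per list were named after their values were seen. Of 17 regulators tested, 3 fell in YAP5SA against Control and 0 rose, where 4.17% of all genes fell and 5.69% rose. Rxrg, a retinoid X receptor that pairs with PPARs, stood at 4.18 to 17.7 CPM in YAP5SA, 16.0 to 24.7 CPM in YAP5SA_MEF2A, 33.1 to 67.0 CPM in Control and 60.2 to 64.1 CPM in MEF2A. Rxrg fell by 2.18 ± 0.39 (SE) on the log2 scale in YAP5SA against Control (adjusted p = 0.00267). Esrra, the estrogen-related receptor alpha, stood at 126 to 274 CPM in YAP5SA, 225 to 235 CPM in YAP5SA_MEF2A, 349 to 451 CPM in Control and 342 to 481 CPM in MEF2A. Esrra fell by 1.19 ± 0.24 (SE) on the log2 scale in YAP5SA against Control (adjusted p = 0.0048). For both genes every library with the YAP5SA virus was below every library without it. Esrrg, of the same receptor family as Esrra, was at -1.12 ± 0.34 (adjusted p = 0.0475). The call of Rxrg was kept without any 1 library, that of Esrra was lost without YAP5SA 3 (adjusted p = 0.0645), and that of Esrrg was lost in 11 of 14 such fits (0.0509 to 0.196), all but those without Control 2, MEF2A 4 or YAP5SA 2. Within batch 1 alone the adjusted p of the 3 was 0.051, 0.0938 and 0.136. Ppara, the PPAR form best known for this pathway, was at -0.09 ± 0.41 (adjusted p = 0.931) and its co-activator Ppargc1a at 0.04 ± 0.24 (adjusted p = 0.942). Ppara had few counts, at 2.40 to 6.83 CPM in all libraries. Against MEF2A 4 regulators were lower in YAP5SA: these 3 and Ppargc1b, a PGC-1 co-activator, at -0.96 ± 0.26. Ppargc1b was lost without YAP5SA 3 (adjusted p = 0.189) and Esrrg in 7 of 14 such fits (0.0549 to 0.178). With the MEF2A virus or both viruses against Control 0 regulators were called by edgeR, with 2 and 4 at an unadjusted p under 0.05.

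**Figure D5:**
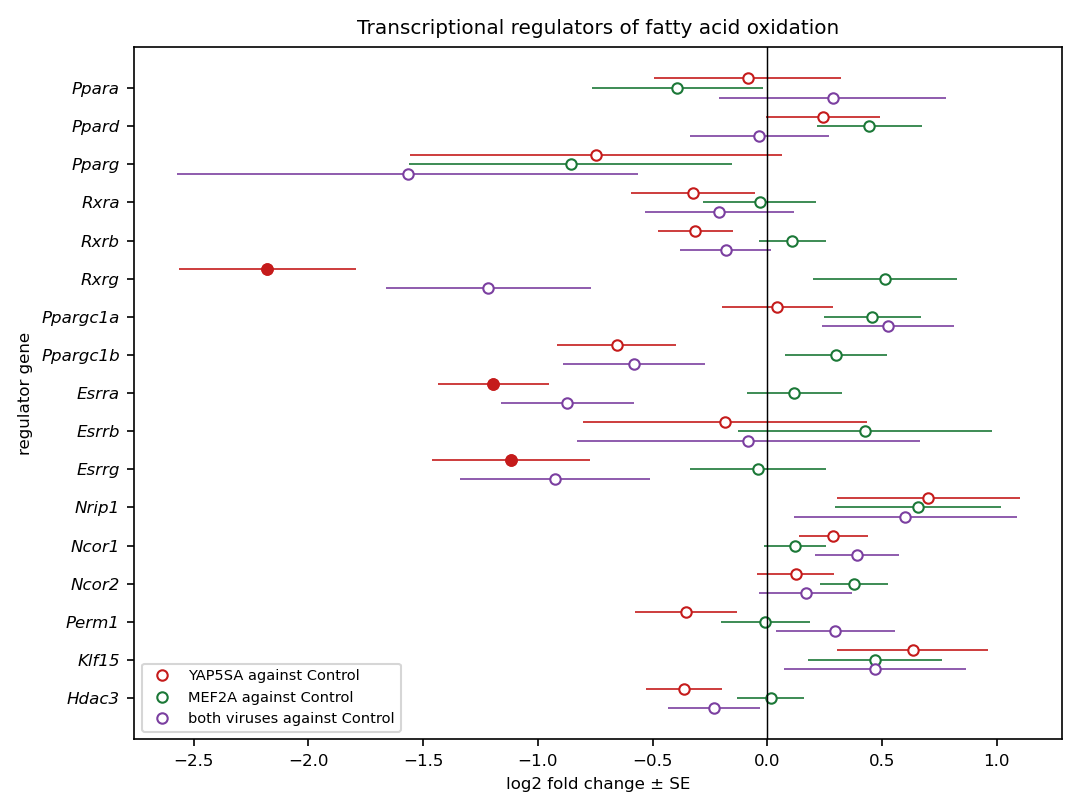
Log2 fold changes of 17 regulators of fatty acid oxidation in 3 comparisons against Control, with bars of 1 standard error on each side. Filled points passed the test. Rxrg, Esrra and Esrrg in YAP5SA are the filled points, at -2.18, -1.19 and -1.12.

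Of 19 other mitochondrial acyl-CoA enzymes, 5 fell in YAP5SA against Control, where 4.17% of all genes fell. Acad12 and Acad10, members of the acyl-CoA dehydrogenase family, led them. Acad12 stood at 3.06 to 6.34 CPM in YAP5SA and 12.9 to 20.6 CPM in Control. Acad12 fell by 2.1 ± 0.30 (SE) on the log2 scale in YAP5SA against Control (adjusted p = 0.000319). Acad10 fell by 1.68 ± 0.29 (SE) on the log2 scale in YAP5SA against Control (adjusted p = 0.00153). These 2 calls were kept without any 1 library. The other 3 were Acad11, Acot13 and Hibch. Acad11 was lost without Control 1, YAP5SA 1 or YAP5SA 3 (adjusted p = 0.0854 to 0.211), Acot13 without YAP5SA 1 (0.0776) and Hibch without Control 4, YAP5SA 1, YAP5SA 3 or either YAP5SA_MEF2A library (0.0532 to 0.224). Of 13 peroxisomal oxidation genes 4 fell, with Ehhadh, the peroxisomal bifunctional enzyme, at -1.28 ± 0.32 (adjusted p = 0.0173) and Phyh, which starts the oxidation of branched phytanic acid, at -0.83 ± 0.22 (adjusted p = 0.0215), and Abcd3 and Pecr besides. Ehhadh and Phyh were lost without YAP5SA 1 or YAP5SA 3 (adjusted p = 0.0601 to 0.175 and 0.105 to 0.18), and Abcd3 and Pecr in 10 and 12 of 14 such fits (0.0515 to 0.28 and 0.0508 to 0.238).

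Of 16 lipid droplet and triglyceride genes 4 fell in YAP5SA against Control, where 4.17% of all genes fell and 5.69% rose. G0s2, an inhibitor of the lipase encoded by Pnpla2, stood at 8.64 to 12.8 CPM in YAP5SA, 10.1 to 14.1 CPM in YAP5SA_MEF2A, 18.7 to 40.4 CPM in Control and 28.1 to 40.9 CPM in MEF2A, so that libraries with the YAP5SA virus were below all others. G0s2 fell by 1.43 ± 0.26 (SE) on the log2 scale in YAP5SA against Control (adjusted p = 0.0023). G0s2 fell by 1.36 ± 0.32 (SE) on the log2 scale in both viruses against Control (adjusted p = 0.0365). The first call was kept without any 1 library, and the second was lost in 7 of 14 such fits, without Control 1, 2 or 4, MEF2A 2 or 3 or either YAP5SA_MEF2A library (adjusted p = 0.0538 to 0.53), and without Controls 1 and 2 together (0.212). Cidea, a droplet fusion protein, was at -1.43 ± 0.36 (adjusted p = 0.0182), and the others were Dgat1, the second enzyme of the step that Dgat2 catalyses, and Fitm2. Cidea was lost without YAP5SA 1 or YAP5SA 3 (0.0671 to 0.0951), and Dgat1 and Fitm2 in 7 and 9 of 14 such fits. Of 14 other uptake, activation and carnitine genes Slc22a5, the carnitine importer of the cell membrane, fell, from 118 to 185 CPM in Control to 69.0 to 96.5 CPM in YAP5SA. Slc22a5 fell by 0.80 ± 0.19 (SE) on the log2 scale in YAP5SA against Control (adjusted p = 0.0139). The call was lost without YAP5SA 1 or YAP5SA 3 (adjusted p = 0.0655 to 0.116). Of 13 genes of malonyl-CoA, AMPK and fatty acid synthesis, Prkag1 fell and Prkab2 rose, both subunits of the energy sensor AMPK, by -1.01 ± 0.23 and 0.96 ± 0.24 (adjusted p = 0.0095 and 0.0154), and both were lost without YAP5SA 1 or YAP5SA 3 (0.0536 to 0.0975 and 0.0683 to 0.127). Of 9 ketone, uncoupling and pyruvate dehydrogenase kinase genes 0 were called by edgeR, with 3 at an unadjusted p under 0.05. None of the 19 calls of these lists was kept without Controls 1 and 2 and YAP5SA 3 (adjusted p = 0.181 to 0.484), and with library totals Rxrg, Acad12 and Prkab2 kept theirs. In the fit without these libraries, Control and YAP5SA shared no batch. In MEF2A against Control 0 genes of the 7 lists were called by edgeR, with 0 to 2 per list at an unadjusted p under 0.05, all higher, and in both viruses against Control G0s2 was the called gene.

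In YAP5SA against MEF2A the lower genes of these lists were 6 of 19 mitochondrial acyl-CoA enzymes, 5 of 13 peroxisomal genes, 4 of 16 droplet genes, 3 of 14 uptake and carnitine genes and 1 of 13 malonyl-CoA and AMPK genes, beside 7.12% of all genes called lower. Acad10 and Acad12 again had the smallest p-values of the mitochondrial list (-1.98 ± 0.30 and -1.97 ± 0.31, adjusted p = 0.000427 and 0.000577). Among peroxisomal genes these were Abcd3, a fatty acid importer of peroxisomes (-1.32 ± 0.25), and Phyh (-1.14 ± 0.22), and among droplet genes G0s2 (-1.7 ± 0.27) and Fitm2, which partitions triglyceride into droplets (-1.32 ± 0.25). Slc22a5 was at -1.02 ± 0.20, Crat, the carnitine acetyltransferase, at -1.02 ± 0.27 and Prkag1 at -1.21 ± 0.23. The calls of Acad10, Acad12, Abcd3, Phyh, G0s2, Fitm2, Slc22a5 and Prkag1 were each kept without any 1 library, and Crat was lost without MEF2A 1, YAP5SA 1 or YAP5SA 3 (adjusted p = 0.0608 to 0.157). Prkab2 was higher at 0.97 ± 0.25 and Pdk3, another pyruvate dehydrogenase kinase, at 1.5 ± 0.48 (adjusted p = 0.014 and 0.0433). Prkab2 was lost without MEF2A 1, YAP5SA 1 or YAP5SA 3 (0.055 to 0.107) and Pdk3 in 9 of 14 such fits (0.0564 to 0.231). In both viruses against MEF2A, G0s2 and Fitm2 were lower, at -1.63 ± 0.32 and -1.36 ± 0.30 (adjusted p = 0.0118 and 0.0241). These calls were lost without either YAP5SA_MEF2A library, and that of Fitm2 also without MEF2A 2 (adjusted p = 0.0739 to 0.26 and 0.0772 to 0.41).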

How the data were processed

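Counts per gene were deposited by the authors as 1 table of whole numbers for 14 libraries and 54446 genes, and these counts were used as deposited. STAR, limma, edgeR and GRCm38 are named in the submitters' processing notes. The counting program, its strand setting and its annotation are not given in the sources used here. The libraries were non-directional, per the labels' protocols. Symbols for 54409 genes and coordinates came from GENCODE vM21 (GRCm38), and 102 symbols had a second identifier. No library's column was identical to another's (0 pairs).

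Genes passed edgeR's filterByExpr (minimum count 10, minimum total 15). TMM factors and edgeR's quasi-likelihood test (edgeR 4.0.16, R 4.3.3) were used with a term for each group and 1 for batch over all 14 libraries (8 in batch 1, 6 in batch 2). The biological coefficient of variation was 0.503. Adjusted p-values are Benjamini-Hochberg over all 17987 genes tested, for each of 7 comparisons, and a gene was called under 0.05. Shares of all genes called are at the adjusted p, and none was taken beside counts at an unadjusted p. Standard errors are the log2 fold change divided by the square root of F. CPM are on TMM-scaled totals. Ranges do not overlap where every library of 1 group lies beyond every library of the other.

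The members and all lists were chosen with earlier results of these data known. Members called in any comparison were described in full, with the member of highest mean CPM in a role with none called, and up to 2 called genes per other list by smallest p. Alternatives were other scaling (RLE, library totals, nuclear-encoded totals), no filter or a stricter one (at least 1 CPM in 4 libraries), DESeq2 1.42.0, limma-voom (limma 3.58.1), no batch term, a replicate block, each batch alone, a term for sex, and libraries left out. The test was checked on simulated data.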

Additional observations from a re-analysis of the deposited data

Results flagged for a closer look

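Within the Control and MEF2A groups, 10 of 70 tests for 1 library far from its group found one (14.3%). In each of the 10 the gap to the nearest other library exceeded Dixon's 95% critical value. The tests share libraries, the members vary together and their sum is built from them, so this share cannot be set against a chance rate. Control 3 gave 6 of them. Its summed CPM of the 34 members was 7949, against 4330 to 5031 in the other Controls. Its Acacb was at 1708 CPM (others 783 to 868), Hadha at 979 CPM (393 to 559), Cpt1a at 261.6 CPM (68.2 to 115.7), Pnpla2 at 193.4 CPM (47.5 to 89.3) and Mlycd at 179.9 CPM (60.9 to 84.6). MEF2A 1 was high for Eci1, at 187.0 CPM (others 108.0 to 112.8), and Decr1, at 99.6 CPM (50.1 to 58.0). MEF2A 4 was high for Lpl, at 146.2 CPM (others 60.5 to 72.8), and Echs1, at 34.7 CPM (26.6 to 27.3).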

How the results depend on the processing

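Of 192 alternatives for the median of the members, 10 turned its sign: 5 in MEF2A against Control, 2 in the interaction, and library totals in 3 other comparisons. For single genes, 1368 kept the call and direction and 448 lost the call. The cause of each shift below was not tested. With library totals, 0 members were called in YAP5SA against Control, 1 in YAP5SA against MEF2A and 0 in both viruses against MEF2A. Medians became 0.051 (YAP5SA), 0.44 (both viruses) against Control, -0.27 (YAP5SA against MEF2A) and 0.11 (both viruses against MEF2A), where the medians of all genes were 0.69, 0.84, 0.51 and 0.67. Nuclear-encoded totals gave 2 calls in both viruses against MEF2A (1 in each direction; 3.38% of all genes) and, in YAP5SA against MEF2A, 2 higher and 8 lower, with all-gene medians of 0.19 (YAP5SA against Control), -0.17 (MEF2A against Control), 0.39 (YAP5SA against MEF2A) and 0.29. Without a filter the counts were 15 (YAP5SA; 2 higher, 13 lower; 8.59% of all genes), 2 (MEF2A; both higher; 1.21%) and 5 (both viruses; 3 higher, 2 lower; 3.16%) against Control. They were 21 in YAP5SA against MEF2A (3 higher, 18 lower; 11.5%), and 1 (higher; 0.555%) and 4 (2 in each direction; 3.73%) for both viruses against YAP5SA and MEF2A. DESeq2 called 10 (YAP5SA; 16.3% of all genes) and 2 (both viruses; 4.55%) against Control and 2 in both viruses against MEF2A (5.7%). Without a batch term both viruses gave 1 against Control (2.61%) and 2 against MEF2A (2.92%). Batch 1 alone gave a median of -0.21 for YAP5SA, 2 calls and 0.60 for MEF2A and 4 calls for both viruses against Control, 4 calls in YAP5SA against MEF2A, 0 in both viruses against MEF2A and an interaction median of -0.40. Batch 2 alone gave 10 calls and -0.94 in YAP5SA against Control. Without Controls 1 and 2, YAP5SA gave 14 calls and -1.0, and the medians of MEF2A and both viruses were -0.21 and -0.77. Without these and YAP5SA 3, YAP5SA gave 0 calls and -0.97, both viruses -0.71, and YAP5SA against MEF2A 5 calls. In that fit Control shared no batch with YAP5SA or YAP5SA_MEF2A. A term for sex gave 6 in YAP5SA against MEF2A.

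Leaving out 1 library gave 2 to 11 calls in YAP5SA against Control (median -0.74 to -0.42), 0 in MEF2A against Control (-0.03 to 0.38) and 0 to 1 in both viruses against Control (-0.51 to -0.19). It gave 3 to 16 calls in YAP5SA against MEF2A (-0.82 to -0.43), 0 to 1 in both viruses against YAP5SA (0.24 to 0.56) and against MEF2A (-0.63 to -0.27), and 0 in the interaction (-0.08 to 0.44). The calls in both viruses against Control appeared without Control 3 or YAP5SA 3, and that against YAP5SA without YAP5SA 2.

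Deviations from group means correlated at -0.18 to 0.09 between samples with the same replicate number, and at -0.15 to 0.17 between samples with different numbers. With so few libraries a group, these values cannot settle whether the numbers pair samples. With the replicate block in place of batch, 3 members were called in YAP5SA against Control (5.21% of all genes) and 7 in YAP5SA against MEF2A (8.75%). Precision is limited by 2 to 5 libraries a group and, for Cpt1b, Acot2 and Etfb, by low counts.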
